A study of Mus musculus with 24 samples.

Results

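The genes described here are 7 that mast cells are known for: Mcpt4, Cma1, Tpsb2, Cpa3, Kit, Ms4a2 and Hdc. They were chosen by name and were found in the deposited table of 17541 genes, on rows with Ensembl identifiers, so 7 of 17541 genes are followed. The tissue was inguinal white adipose tissue, the subcutaneous fat of the groin, taken at necropsy from C57BL/6J WT mice and flash frozen, in a study of high fat diet-fed mice. At 16 weeks of age, 7 libraries were labelled Young CTRL and 6 were labelled Young BAM15. At 92 weeks, 6 carried the label Aged CTRL and 5 the label Aged BAM15, which makes 24 in all. The compound BAM15 uncouples mitochondrial respiration, and CTRL is the label of the mice that did not receive it; the labels used here give neither dose nor duration of treatment, and no genetic modification. Each library carried its own identification number in the labels, which do not say whether animals were pooled. Libraries were made with QuantSeq, which reads a short stretch near the 3′ end of each transcript, so a count is not scaled by transcript length.

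Mast cells arise from bone marrow progenitors and mature in tissues under the growth factor stem cell factor, which acts through the receptor Kit. Their granules hold histamine, heparin-like proteoglycan and proteases that are released when antigen cross-links IgE bound to its high-affinity receptor. In adipose tissue they lie along vessels and among the stroma, so that their transcripts form a small part of RNA from whole fat. In such bulk RNA, fewer cells of a type and less RNA per cell cannot be told apart.

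Sequencing depth was 8624158 to 21865353 counts per library. In 4 libraries the mitochondrial ribosomal RNA mt-Rnr2 took between 0.121% and 0.257% of the raw counts, and in the other 20 it took 0.722% or more; the comparisons of the 7 genes between groups are given with and without those 4. They were replicate 4 of Young CTRL, replicate 2 of Aged CTRL and replicates 2 and 5 of Aged BAM15; the Young BAM15 group had none. The 4 were also the most deeply sequenced, with at least 18395476 counts each, and all mitochondrial genes together took 12.0% to 21.4% of their counts, against 4.82% to 9.27% in the other 20. Summed adipocyte markers reached 14345 to 74885 CPM over all libraries, CPM being the gene's counts scaled by the TMM-adjusted library size, so the defining markers of the labelled tissue were present in each. No pair of libraries within a group agreed within counting noise: the smallest chi-square per gene over 61 pairs was 18.9, where 1 is the value for counting noise alone.

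The 4 protease genes lie at chr14:56059629-56062313 (Mcpt4, minus strand), chr14:55941451-55944675 (Cma1, minus strand), chr17:25366305-25369098 (Tpsb2, plus strand) and chr3:20215620-20242181 (Cpa3, minus strand) on GRCm38. Mcpt4 and Cma1 belong to the chymase cluster on chromosome 14. The receptor genes lie at chr5:75574916-75656722 (Kit, plus strand) and chr19:11615523-11623719 (Ms4a2, minus strand), and Hdc at chr2:126593667-126619299 (minus strand). All 7 are annotated as protein coding, and the one overlap with another annotated gene is that of Cpa3 with the microRNA gene Mir7007, on the same strand.

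The promoters of 3 protease genes are shown because these genes varied together across libraries, as described below. They are the 250 bases before the RefSeq transcription start on GRCm38.p6, written 5′ to 3′ on the gene's minus strand, with GATAA or its reverse complement TTATC in capitals; GATAA is the core bound by GATA factors, among them the mast cell regulator Gata2.
Mcpt4, chr14:56062311-56062560: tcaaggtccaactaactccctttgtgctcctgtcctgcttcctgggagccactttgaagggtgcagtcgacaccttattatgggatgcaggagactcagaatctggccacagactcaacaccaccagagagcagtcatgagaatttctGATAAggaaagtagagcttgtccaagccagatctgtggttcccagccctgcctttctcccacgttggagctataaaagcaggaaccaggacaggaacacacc
Cpa3, chr3:20242182-20242431: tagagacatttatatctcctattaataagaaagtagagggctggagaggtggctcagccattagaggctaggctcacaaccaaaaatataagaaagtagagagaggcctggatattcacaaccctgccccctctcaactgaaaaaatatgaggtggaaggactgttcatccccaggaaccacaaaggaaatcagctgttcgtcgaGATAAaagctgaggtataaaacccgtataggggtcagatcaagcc
Cma1, chr14:55944676-55944925: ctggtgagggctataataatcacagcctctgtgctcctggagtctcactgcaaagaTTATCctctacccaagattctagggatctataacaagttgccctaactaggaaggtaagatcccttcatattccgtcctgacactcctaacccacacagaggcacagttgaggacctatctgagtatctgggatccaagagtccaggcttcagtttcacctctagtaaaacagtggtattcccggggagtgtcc
RefSeq promoters were matched for 6 of the 7 genes. None was available for Tpsb2, which also varied with these 3 genes, so its promoter was not searched. GATAA, searched on both strands, occurred 1 time in each of these 3 promoters and 3 times in that of Ms4a2, and was not found in these windows of Kit or Hdc. Its first base lay at -102 from the start in Mcpt4, at -45 in Cpa3 and at -194 in Cma1. It occurred in 22.6% of 32851 promoters of this length. The E-box CANNTG, which reads the same on both strands and was allowed to overlap GATAA, was found in the promoters of Cpa3, Cma1 and Hdc and in 66.2% of all promoters. A match is a description of the letters, not evidence of a bound site.

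Because reads come from 3′ ends, the last 300 bases of each gene's longest protein-coding transcript were compared with whole transcripts of other genes. The last bases of Mcpt4 were 82.6% identical to Cma2 over 178 bases, and those of Tpsb2 were 83.3% identical to the second tryptase gene, Tpsab1, over 60 bases. For Cma1 the closest match was Gm48934, 99.0% identical over 97 bases, so reads in that stretch are uncertain. No similar gene was found for Cpa3, Kit, Ms4a2 or Hdc. A match may lie away from the 3′ end of the other gene, and the ends of shorter transcripts were not compared.

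Among the granule proteases, Mcpt4, the chymase of connective tissue mast cells, had the widest range. Its lowest, median and highest levels were 1.56, 4.42 and 38.8 CPM for the Young CTRL group, and for Young BAM15 they were 1.48, 6.87 and 16.7 CPM. In Aged CTRL they were 3.77, 6.37 and 171 CPM, while the 5 Aged BAM15 libraries had 15.5, 394, 11.4, 11.3 and 116 CPM. The 4 highest values of the series were those of the 4 libraries low in mt-Rnr2: 38.8, 171, 394 and 116 CPM. Without them the group means were 4.11 ± 1.66 CPM in Young CTRL (SD, n = 6), 8.14 ± 5.11 in Young BAM15 (SD, n = 6), 7.07 ± 3.92 in Aged CTRL (SD, n = 5) and 12.7 ± 2.42 in Aged BAM15 (SD, n = 3). The groups of each comparison overlapped, also without the 4 libraries.

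Cma1, a second chymase-family protease of mast cell granules, ranged less. Its lowest, median and highest levels were 3.83, 12.97 and 20.0 CPM in Young CTRL, against 4.07, 8.87 and 17.2 CPM for Young BAM15. In Aged CTRL they were 9.50, 20.9 and 27.7 CPM, and the Aged BAM15 libraries had 20.2, 41.9, 11.4, 9.03 and 21.0 CPM. Both aged groups reached above the young ones and overlapped with them. The libraries low in mt-Rnr2 were within the range of the other 20 for this gene, except Aged CTRL 2 and Aged BAM15 2 at 27.7 and 41.9 CPM, against a highest value of 27.6 CPM in the others.

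Tpsb2 encodes a tryptase stored in the granules bound to proteoglycan. It was measured at 5.48, 14.3 and 43.1 CPM (lowest, median, highest) in the Young CTRL libraries, and at 6.51, 12.0 and 30.5 CPM with BAM15 at that age. In Aged CTRL these values were 13.4, 21.0 and 70.0 CPM, and the Aged BAM15 libraries had 26.8, 111, 19.8, 28.6 and 52.7 CPM. The 4 libraries low in mt-Rnr2 held the 4 highest values, from 43.1 CPM, above all other 20, whose highest was 36.2 CPM. Among those 20, Aged CTRL averaged 22.2 ± 8.43 CPM (SD, n = 5) and Young CTRL 12.1 ± 5.40 CPM (SD, n = 6), with overlap.

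Cpa3, the mast cell carboxypeptidase, was at 2.53, 8.63 and 17.8 CPM (lowest, median, highest) among Young CTRL libraries, and its values for Young BAM15 were 2.66, 10.1 and 21.5 CPM. It was at 8.41, 11.9 and 16.8 CPM in Aged CTRL, and at 18.2, 38.3, 6.19, 8.45 and 16.3 CPM in the Aged BAM15 libraries. All 4 groups overlapped. A single library low in mt-Rnr2, Aged BAM15 2, lay above the others for this gene.

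Kit, the receptor for stem cell factor, is also made by melanocytes, blood progenitors and other cells. Its lowest, median and highest levels were 2.92, 5.41 and 15.4 CPM in Young CTRL, 2.02, 7.52 and 17.7 CPM for Young BAM15 and 3.91, 8.48 and 12.3 CPM in Aged CTRL, and the Aged BAM15 libraries had 4.48, 3.37, 8.09, 6.12 and 6.63 CPM. All groups overlapped, and the libraries low in mt-Rnr2 were not the high ones: their median was 5.00 CPM against 7.77 CPM in the other 20.

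Ms4a2 encodes the beta chain of the high-affinity IgE receptor, which mast cells share with basophils. It was near the limit of detection, with 0 counts in 3 Young CTRL libraries and at most 81 counts in any library; a count of 0 allows a level of up to 3 counts, or 0.223, 0.260 and 0.301 CPM, in those 3 libraries. Its median was 0.365 CPM for Young CTRL (highest 0.506), and for Young BAM15 it was 0.340 CPM (0.101 to 0.501 CPM, 1 to 5 counts). In Aged CTRL the lowest, median and highest were 0.206, 0.764 and 4.21 CPM, and the Aged BAM15 libraries had 1.23, 4.20, 0.595, 0.777 and 1.499 CPM. All 5 Aged BAM15 libraries were above all 6 Young BAM15 libraries, as were 1.17% of the genes tested (187 of 15939). No young library exceeded 0.506 CPM, so Ms4a2 passed the filter on low counts through aged libraries alone, and its differences with age are given as a description. No other gene of the 7 was separated between these groups or between the groups of any other comparison.

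Hdc makes histamine from histidine and is also found in basophils and neutrophils. Its lowest, median and highest levels were 1.10, 2.02 and 4.83 CPM in Young CTRL, 1.26, 2.01 and 4.95 CPM for Young BAM15 and 1.65, 3.19 and 4.79 CPM in Aged CTRL. The Aged BAM15 libraries had 0.778, 7.09, 2.92, 2.62 and 4.67 CPM, overlapping with all other groups.

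**Figure D1:**
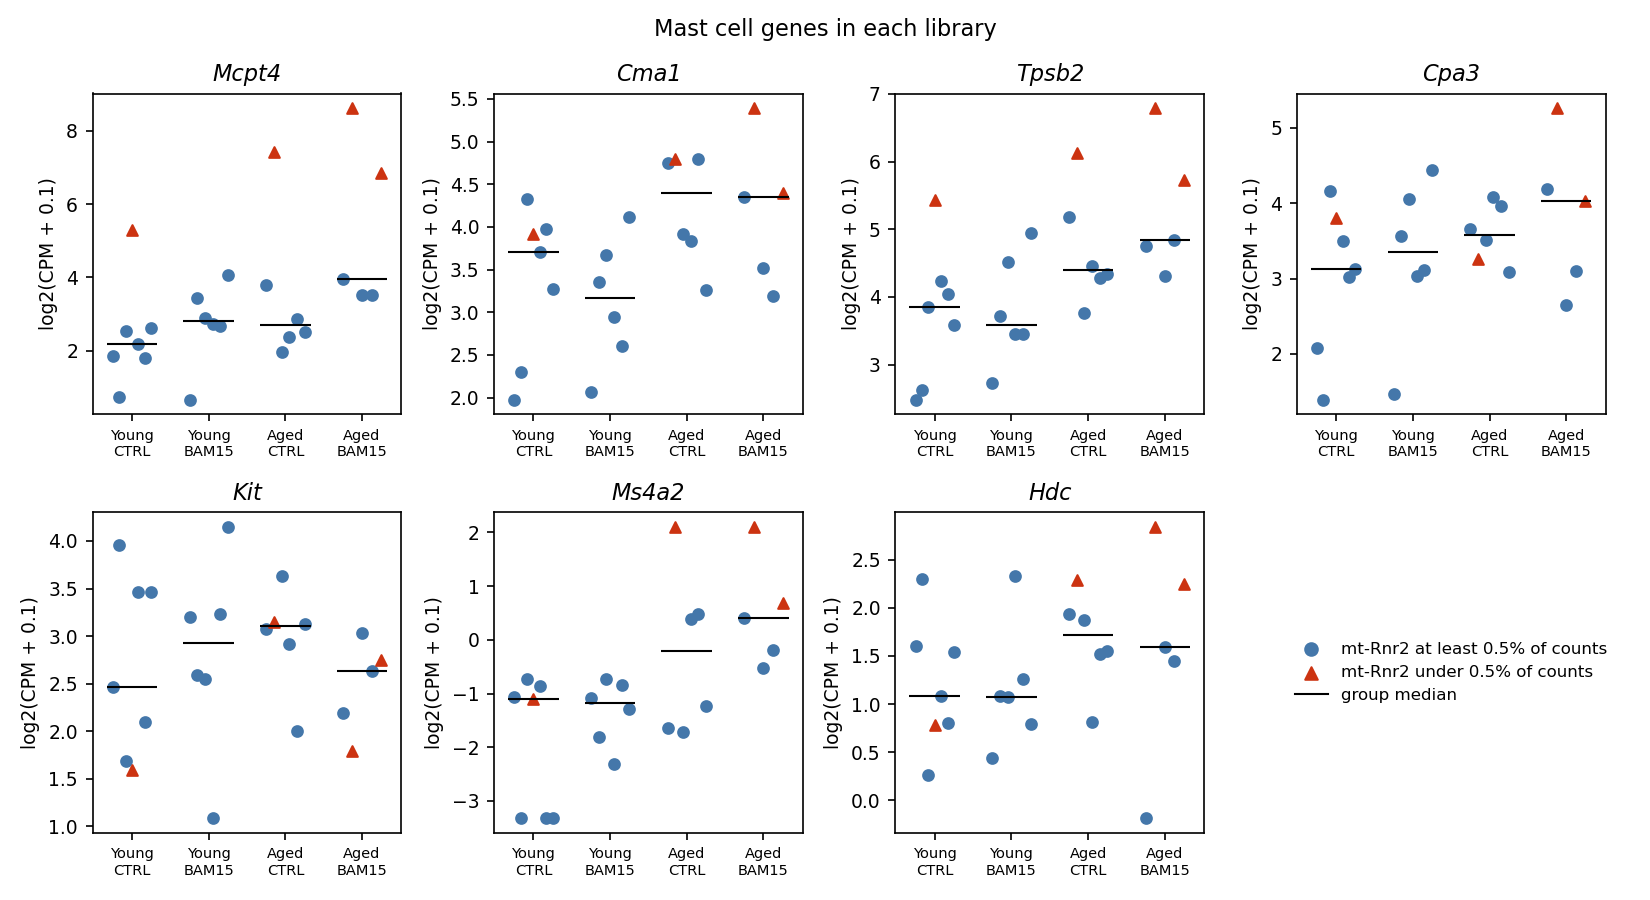
Level of each of the 7 genes in each library by group, as log2 of CPM plus 0.1; each point is 1 library, bars are group medians, and triangles are the 4 libraries with mt-Rnr2 under 0.5% of counts. For Mcpt4 and Tpsb2 the 4 triangles lie above all 20 circles, while for Kit they lie among them; scales differ between panels.

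The first comparison asked how aged differ from young mice without BAM15. Leaving aside Ms4a2, the other 6 genes had a positive log2 change in Aged CTRL over Young CTRL, with a median of 0.60 against -0.04 over all genes. Of all genes, 46.5% had a positive change. The 4 proteases among the 6 varied together across libraries, as described below, so these are not separate observations. None of the 7 passed an adjusted p of 0.05 in edgeR's quasi-likelihood test. The share of all genes that passed was 0.207% (33 of 15939). The log2 changes were 1.92 ± 1.03 (SE) for Mcpt4, 0.79 ± 0.41 for Cma1, 0.86 ± 0.49 for Tpsb2 and 0.38 ± 0.45 for Cpa3. Those of Kit, Ms4a2 and Hdc were 0.13 ± 0.42, 2.30 ± 0.86 and 0.41 ± 0.44, and the smallest adjusted p of the 6 was 0.634, for Cma1. Without the 4 libraries low in mt-Rnr2, Tpsb2 and Cma1 were at 0.87 ± 0.37 and 0.74 ± 0.42, Mcpt4 was at 0.79 ± 0.44, Ms4a2 at 1.49 ± 0.93 and Kit at -0.03 ± 0.44. Of the 6 genes other than Ms4a2, 5 were positive in that fit, with a median of 0.66. Again none of the 7 passed, beside 0.477% of all genes (79 of 16553), and the smallest adjusted p was 0.365, for Tpsb2. The value of Mcpt4 turned to -0.37 when Aged CTRL 2 alone was left out. That fit kept Young CTRL 4, also low in mt-Rnr2 and at 38.8 CPM of Mcpt4, in the reference group, unlike the fit without the 4 libraries.

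Between Aged BAM15 and Young BAM15, 5 of the 6 genes other than Ms4a2 had a positive log2 change, with a median of 0.86 against -0.10 over all genes. Of all genes, 44.6% had a positive change. The log2 change was 3.75 ± 1.185 for Mcpt4, 1.60 ± 0.53 for Tpsb2 and 1.11 ± 0.44 for Cma1, each at an unadjusted p under 0.05, and 2.35 ± 0.94 for Ms4a2. Cpa3 and Hdc were at 0.60 ± 0.49 and 0.62 ± 0.48, and Kit was at -0.53 ± 0.47. None of the 7 passed edgeR's adjusted threshold, beside 0.427% of all genes (68 of 15939), and the smallest adjusted p was 0.160, for Mcpt4. DESeq2's Wald test gave Mcpt4 3.78 ± 1.03 with an adjusted p of 0.0188, in a test that called 2.32% of all genes (370 of 15939). Of the 5 Aged BAM15 libraries 2 were low in mt-Rnr2, and of the Young BAM15 libraries none was. Without the 4 libraries low in mt-Rnr2, 3 of the 6 genes other than Ms4a2 had a positive log2 change, with a median of 0.24. The log2 change of Mcpt4 was then 0.67 ± 0.49, that of Tpsb2 0.70 ± 0.42 and that of Cma1 0.52 ± 0.48. Cpa3, Hdc and Kit were negative, the lowest at -0.39. None of the 7 reached an unadjusted p of 0.05 in that fit, and 0.163% of all genes passed (27 of 16553).

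BAM15 in aged mice was tested between Aged BAM15 and Aged CTRL, where 0% of all genes passed (1450 genes had an unadjusted p under 0.05, DESeq2 called 103 and limma-voom 966). The log2 changes were 1.67 ± 1.10 for Mcpt4, 0.66 ± 0.53 for Tpsb2, 0.50 ± 0.48 for Cpa3 and 0.04 ± 0.44 for Cma1. Those of Kit, Ms4a2 and Hdc were -0.52 ± 0.47, 0.41 ± 0.89 and 0.17 ± 0.48. None of the 7 had an unadjusted p under 0.05. With the 4 libraries left out, Mcpt4 was at 0.85 ± 0.51, Tpsb2 at 0.17 ± 0.44, Cpa3 at -0.24 ± 0.56, Cma1 at -0.46 ± 0.51 and Hdc at -0.47 ± 0.55, and 0% of all genes passed. The sign for Cpa3, Cma1 and Hdc thus turned.

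In young mice, between Young BAM15 and Young CTRL, 0% of all genes passed (2081 had an unadjusted p under 0.05, DESeq2 called 162 and limma-voom 631). All 7 genes lay between -0.28 (Cma1) and 0.36 (Ms4a2) on the log2 scale, each within 1 SE of 0, with a median of -0.04. Without Young CTRL 4, the one young library low in mt-Rnr2, and the 3 aged ones, Mcpt4 was at 0.97 ± 0.42 (unadjusted p = 0.0318, edgeR adjusted p = 0.217) and Tpsb2 at 0.35 ± 0.35. The other 5 were between -0.24 and 0.46, and 0% of all genes passed. A p above the threshold does not show that the levels were alike: for Mcpt4 the 95% interval of this change ran from 0.14 to 1.79. That interval uses a normal approximation, is somewhat too narrow and is not adjusted for the number of genes tested.

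The difference between the BAM15 effects in aged and young mice was 1.83 ± 1.501 on the log2 scale for Mcpt4, 0.74 ± 0.72 for Tpsb2 and -0.66 ± 0.63 for Kit, and 0% of all genes passed with all libraries or without the 4 (809 had an unadjusted p under 0.05 with all libraries, DESeq2 called 2 and limma-voom 0). Without the 4, this difference was -0.12 ± 0.67 for Mcpt4 and -0.17 ± 0.56 for Tpsb2. The age comparisons in CTRL and in BAM15 mice share no library, nor do the BAM15 comparisons in aged and in young mice, but each age comparison shares a group with each BAM15 comparison.

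**Figure D2:**
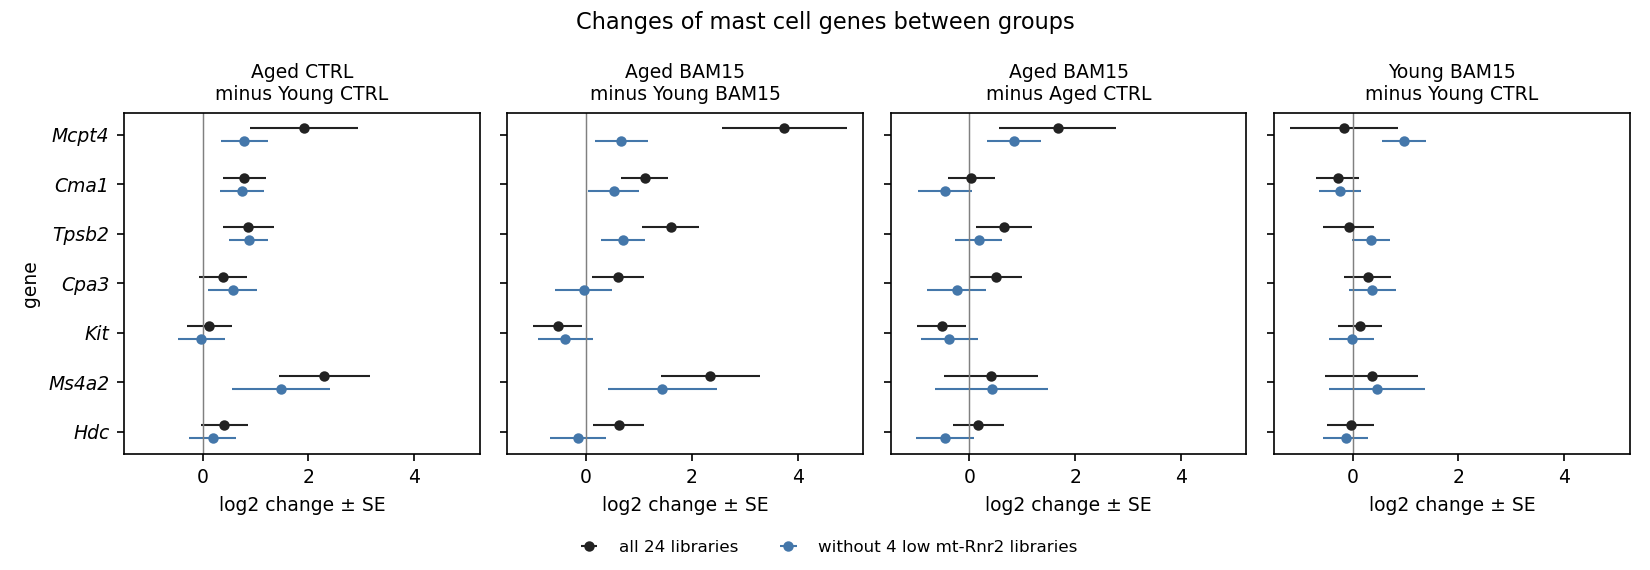
Log2 change of each gene in the 4 comparisons between groups, with its standard error; black is the fit to all 24 libraries and blue the fit without the 4 libraries low in mt-Rnr2. The value of Mcpt4 in Aged BAM15 minus Young BAM15 was 3.75 with all libraries and 0.67 without the 4.

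The 4 libraries low in mt-Rnr2, which came from 3 groups, differed from the other 20 unevenly across the 7 genes. Their median level of Mcpt4 was 144 CPM against 6.14 CPM in the other 20, a ratio of 23.4. For Tpsb2 the medians were 61.3 and 17.5 CPM, a ratio of 3.51, for Cma1 24.4 and 12.0 CPM, a ratio of 2.03, and for Cpa3 15.1 and 9.94 CPM, a ratio of 1.52. Mcpt4 and Tpsb2 were higher in all 4 libraries than in every other library, as were 6.91% of the genes tested (1102 of 15939). Ms4a2 had medians of 2.85 and 0.373 CPM and Hdc of 4.73 and 2.46 CPM, both with overlap, and Kit was lower in the 4 by median. Summed macrophage markers had medians of 1186 CPM in the 4 and 695 CPM in the others, and their part in these levels was not tested. Both chymase genes are markers of the same granules, so their ratio within each library was also computed. The ratio of Mcpt4 to Cma1 counts was 2.58, 6.17, 9.39 and 5.51 in these libraries, in the order of their naming above, and 0.217 to 1.25 in the other 20, with no overlap. Mcpt4 to Cpa3 (2.79 to 18.1 against 0.304 to 1.84) and Mcpt4 to Tpsb2 (0.899 to 3.56 against 0.207 to 0.818) did not overlap either, while Kit to Cpa3 did. Mcpt4 by itself was already separated in these libraries, and the share of all gene pairs with separated ratios was not computed. The ratio of Tpsb2 to Cma1 was 2.50 to 2.88 in the 4 and 0.701 to 3.16 in the other 20, and that of Cpa3 to Cma1 was 0.341 to 0.927 and 0.465 to 1.43. Both of these ratios overlapped. The labels give no batch or other reason for the 4 libraries, and what sets them apart was not tested.

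**Figure D3:**
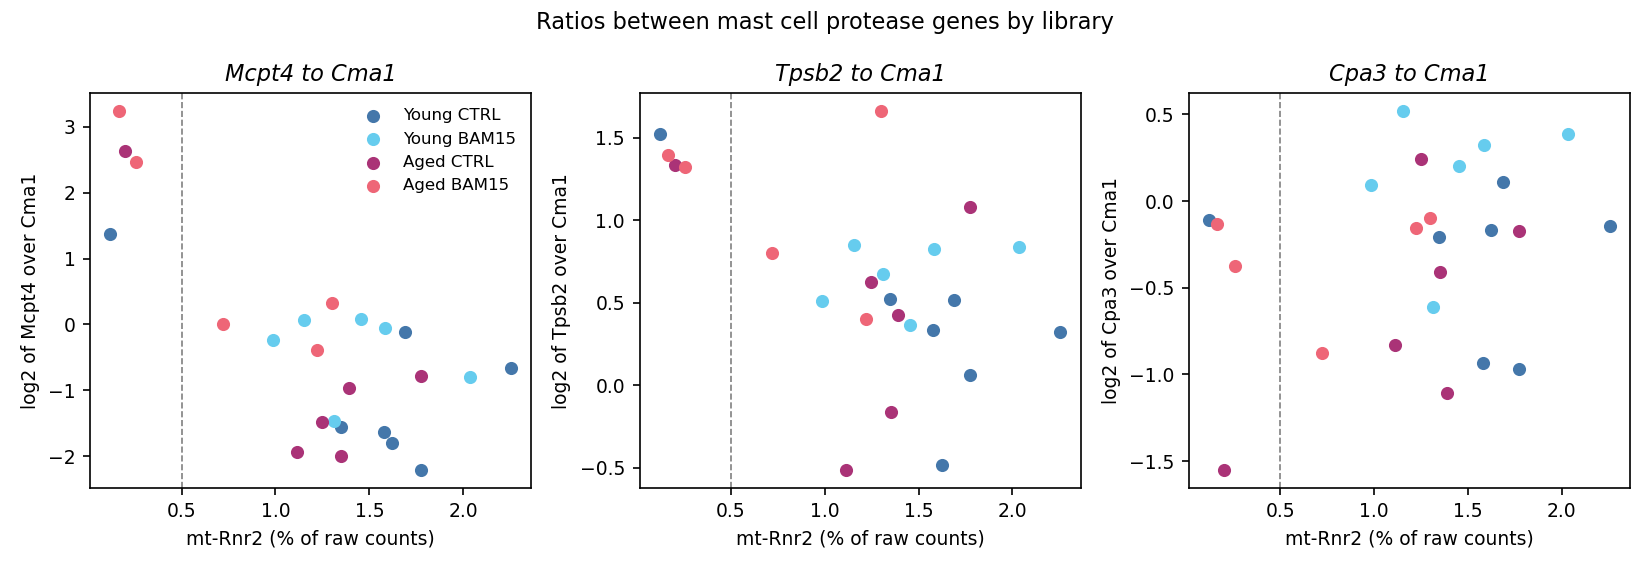
Log2 ratio of Mcpt4, Tpsb2 and Cpa3 to Cma1 in each library against the share of counts from mt-Rnr2, coloured by group; the dashed line is 0.5%. The 4 libraries left of the line lie at Mcpt4 to Cma1 ratios of 2.58 to 9.39, above the highest of the other 20 at 1.25, while for Cpa3 to Cma1 both sets overlap.

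Among the 20 other libraries the 4 proteases varied together. Group means were removed only over all 24 libraries, so the r values over these 20 include any differences between groups. Of 21 pairs among the 7 genes, 6 had a Benjamini-Hochberg adjusted permutation p under 0.05 for Pearson's r of log2 CPM over these libraries, and those were the 6 pairs among Mcpt4, Cma1, Tpsb2 and Cpa3. The highest was Cpa3 with Cma1 (r = 0.83, permutation p = 1e-05, the smallest that 100000 permutations can give, adjusted p = 0.00021, Spearman's rho = 0.77), and r was 0.75 without the 2 libraries farthest from the median. Tpsb2 with Cma1 had r = 0.80 (permutation p = 7e-05, adjusted p = 0.00049, rho = 0.67, r = 0.69 without 2 libraries). Mcpt4 with Tpsb2 had r = 0.79 (permutation p = 4e-05, adjusted p = 0.00042, rho = 0.69, r = 0.65 without 2 libraries). Mcpt4 with Cma1, the pair of chymase genes, was the weakest of the 6 (r = 0.59, permutation p = 0.00625, adjusted p = 0.0219, rho = 0.45, and r = 0.35 without 2 libraries), and its Spearman adjusted p was 0.148. That relation rested in large part on those 2 libraries. Mcpt4 with Cpa3 had r = 0.71 (permutation p = 0.00055, adjusted p = 0.00231, rho = 0.58), and r was 0.41 without 2 libraries. Tpsb2 with Cpa3 had r = 0.77 (permutation p = 0.00012, adjusted p = 0.00063, rho = 0.63, r = 0.64 without 2 libraries). No pair with Kit, Hdc or Ms4a2 passed over the 20 libraries: Kit with the proteases ran from -0.20 to -0.01 and Hdc from -0.39 to -0.16. Over all 24 libraries 10 of 21 pairs passed, the additional 4 being those of Ms4a2 with the 4 proteases, and with each group's mean removed 8 passed. By Spearman's rho 9 and 6 passed, and no pair with Ms4a2 was among the 6. Over the 24 libraries, Ms4a2 with Mcpt4 had r = 0.72, and 0.47 without 2 libraries. Ms4a2 passed the filter on low counts through aged libraries alone, so its pairs are a description.

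**Figure D4:**
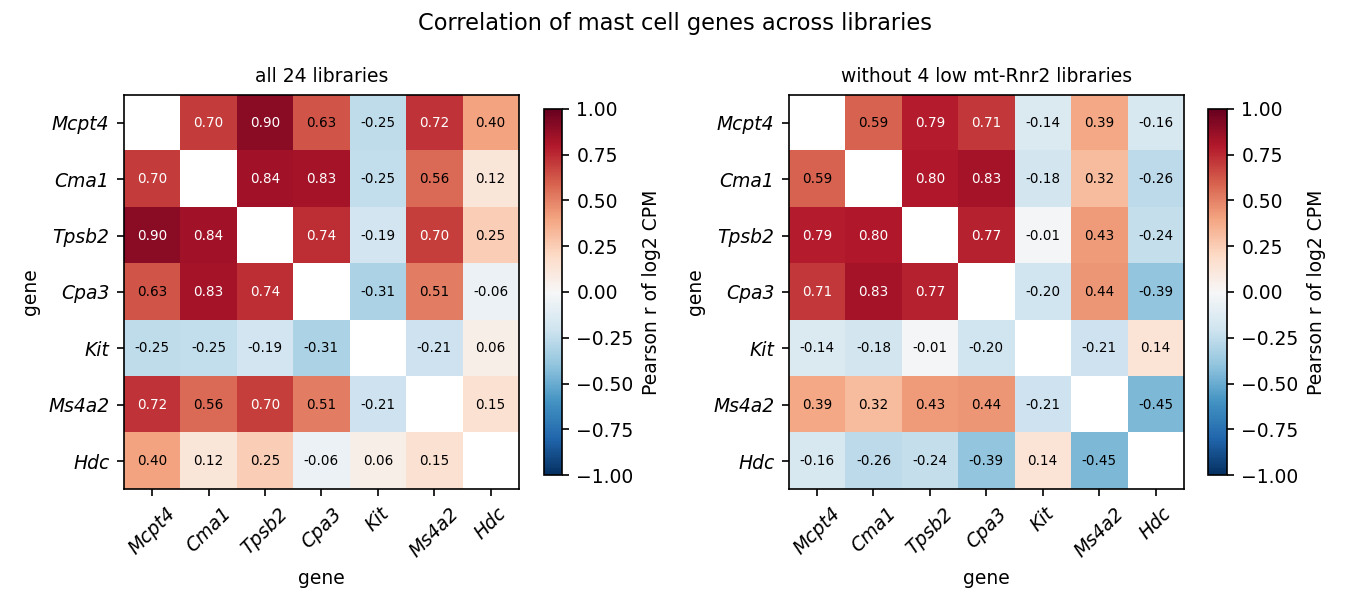
Pearson correlation of log2 CPM for the 21 pairs of genes, over all 24 libraries and without the 4 libraries low in mt-Rnr2. The 4 proteases form a block from 0.59 to 0.83 without the 4 libraries, whereas Kit and Hdc stay at -0.39 to 0.14 with every other gene in that panel apart from Ms4a2 with Hdc at -0.45.

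Among the genes outside the 7 whose log2 CPM followed the mean standardized level of the 7 most closely over 24 libraries, of 12819 ranked, were Tgfbi (r = 0.87), Tnfrsf11a (0.87), Scara3 (0.85), Akr1b10 (0.85), Cyp1b1 (0.85), Cebpd (0.84) and Lysmd2 (0.84). Each of these had a higher median in the 4 libraries low in mt-Rnr2 than in the other 20: the median of Tgfbi, a secreted matrix protein, was 267 CPM in the 4 and 65.5 CPM in the others. Over the other 20 libraries they had r from 0.53 (Akr1b10) to 0.76 (Tnfrsf11a), and Tnfrsf11a was still among the closest 8. These r values are a description over libraries that differ in depth and in markers of other cell types.

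Of 9 other mast cell genes in the table, 8 could be tested and none passed in any comparison, with all libraries or without the 4. The most abundant was Il1rl1, the receptor for interleukin-33, with group medians of 5.54 to 7.13 CPM, followed by Rab27b, a regulator of granule exocytosis, with 0.595 to 1.91 CPM. Of genes singled out after their values were seen, the mast cell receptor gene Mrgprb1 reached at most 5.37 CPM and was at 0 in 2 libraries, and Fcer1a, the IgE-binding chain, reached at most 2.34 CPM and was at 0 in 6. Medians in the 4 libraries and in the other 20 were 7.21 and 5.89 CPM for Il1rl1 and 0.781 and 1.23 CPM for Rab27b. For Mrgprb1 they were 3.30 and 0.706 CPM, and for Fcer1a 0.929 and 0.262 CPM. Among the remaining genes of this list, Mrgprb2, Slc18a2 and Tpsab1 also had a higher median in the 4 libraries. Tph1 and Cyp11a1 had a lower one, as did Rab27b. Summed over the 9 genes, the medians were 18.6 CPM in the 4 libraries and 12.1 CPM in the others, with overlap. Among 11 genes of the IgE receptor and its signalling none passed; Plcg1, which produces the calcium signal, was at a median of 23.7 CPM in the 4 libraries low in mt-Rnr2 and 83.2 CPM in the others, and Fcer1g, a receptor chain that macrophages also make, was at 76.5 and 55.0 CPM.

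None of 7 tested growth factors, cytokines and receptors passed in any comparison: Kitl, which encodes stem cell factor, had group means of 41.6 ± 12.7 (SD, n = 7), 36.8 ± 6.75 (SD, n = 6), 45.7 ± 13.3 (SD, n = 6) and 50.8 ± 10.4 CPM (SD, n = 5) in Young CTRL, Young BAM15, Aged CTRL and Aged BAM15. Csf2rb, a shared cytokine receptor chain, had group medians of 39.8 to 71.0 CPM. Of 6 transcription factors none passed, with Stat5b at group medians of 37.1 to 60.8 CPM and Spi1 at 20.1 to 35.5 CPM. Of the granule matrix and other granule protease genes 3 could be tested and none passed. Srgn, the core protein of the granule proteoglycan, was at a median of 90.9 CPM in the 4 libraries low in mt-Rnr2 and 84.2 CPM in the others, while Ndst2, an enzyme of heparin synthesis, was at 1.21 and 20.4 CPM. For histamine, none of 4 genes passed: Hnmt, which inactivates histamine, was at 123 CPM in the 4 and 23.0 CPM in the others, and Hrh1, a histamine receptor, was at 2.37 and 1.55 CPM.

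One gene of these lists passed, Hpgds, which makes prostaglandin D2 in mast cells and also in some macrophages and other cells. Its lowest, median and highest levels were 1.48, 5.13 and 5.72 CPM in Young CTRL, 4.14, 7.35 and 11.5 CPM for Young BAM15 and 9.28, 14.5 and 37.4 CPM in Aged CTRL, and the Aged BAM15 libraries had 11.4, 27.0, 9.46, 15.5 and 25.9 CPM. All 6 Aged CTRL libraries lay above all 7 Young CTRL libraries, as did 0.333% of the genes tested (53 of 15939). Hpgds rose with age in CTRL mice by 2.07 ± 0.36 on the log2 scale (edgeR adjusted p = 0.0106), and by 1.81 ± 0.33 without the 4 libraries low in mt-Rnr2 (adjusted p = 0.0136), the only one of 6 tested genes of eicosanoid synthesis to pass; without Young CTRL 1 and 7 together the adjusted p was 0.0600. In BAM15 mice the change was 1.24 ± 0.39 (edgeR adjusted p = 0.155), and 0.70 ± 0.37 without the 4 libraries (adjusted p = 0.844). The difference between the BAM15 effects in aged and young mice, which equals that between both age effects, was -0.83 ± 0.53 for Hpgds, with an edgeR adjusted p of 0.899. Summed macrophage markers ranged from 447 to 1122 CPM in Young CTRL and from 626 to 1716 CPM in Aged CTRL, with a positive change for 6 of 6 and none past the threshold, and their part in the Hpgds result was not tested.

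Markers of cells that share some of the 7 genes were low or uneven. Basophil markers, which share Ms4a2 and Hdc, summed to at most 2.52 CPM in any library, and Prss34 was at 0 in 12 libraries. This sum covers Prss34 and Cd200r3 alone, since Mcpt8 was not among the counted genes. Melanocyte markers, which share Kit, summed to 0.451 to 4.86 CPM in the 20 libraries and 2.19 to 12.7 CPM in the 4 low in mt-Rnr2. Neutrophil markers, which share Hdc, summed to 7.40 to 55.7 CPM in the 20 and 21.4 to 109 CPM in the 4. Fibroblast markers were at 1288 to 3791 CPM in the 20 and 4157 to 4981 CPM in the 4, without overlap. Of single genes tested, 6.91% (1102 of 15939) were also higher in all 4 than in the other 20. Endothelial markers had medians of 755 CPM in the 20 and 287 CPM in the 4. B cell markers summed to 1.33 to 1155 CPM over all libraries, T cell markers to 2.40 to 233 CPM, eosinophil markers to 1.82 to 29.5 CPM and skeletal muscle markers to 15.9 to 45645 CPM. Keratinocyte and mammary epithelium markers reached 1211 and 144 CPM in Young CTRL libraries but no more than 7.80 and 17.6 CPM in the other 3 groups. Also not counted were Siglecf, Epx, Ear1 and Ear6 of the eosinophil list, Tyr and Tyrp1 of the melanocyte list, and Csn3 and Wap of the mammary list. No gene of these marker lists passed in any of the 5 comparisons, and their part in the levels of the 7 genes was not tested.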

How the data were processed

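RNA from inguinal fat was sequenced by 3′ tag counting in 24 libraries. The deposited raw table holds whole-number read counts per gene; the second deposited table is the signal obtained by the authors by dividing those counts by size factors (the 2 agree within rounding), with DESeq2 1.18.1 in R 3.4.3 on GRCm38 per the submitters' processing notes. The sources used here do not give the aligner, the counting tool or the annotation. The tests used the count table. Names of the 7 genes were read from the signal table, which named 14606 rows; 2888 more were named by Ensembl identifier from the reference and 47 had no name.

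edgeR 4.0.16 (R 4.3.3) kept 15939 genes by its default expression filter (16553 without the 4 libraries low in mt-Rnr2) and fitted all groups together with TMM factors and no covariate, with 20 residual degrees of freedom and a common biological coefficient of variation of 0.621; p-values were adjusted by Benjamini-Hochberg over all genes tested. Standard errors were derived from the log2 change and its F statistic. The 95% intervals were derived from those by a normal approximation, which makes them somewhat too narrow. The fit was first tested on simulated data with known changes. Every simulated gene had the same spread, below the common spread of the data, and no library was made to deviate. The simulation therefore does not show how the fit behaves with the 4 libraries low in mt-Rnr2. Alternatives were DESeq2 1.42.0, limma-voom 3.58.1 with quality weights, other scaling factors and filters, the compared groups alone, a replicate block and leaving out libraries. Sequence likeness was computed with BLAST 2.17.0 on GENCODE transcripts.

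Every one of the 7 genes is described. From other mast cell lists, genes past the threshold in any comparison are named, or else the 2 with the highest mean CPM, and from all other genes whose mean reached 1 CPM the 8 most correlated with the 7, of which 1 is not reported here. The genes, lists and rules were chosen with earlier results of these data known, and the values of Hpgds under the alternatives were added after the data were seen. The labels give each library its own identification number without saying that it is a mouse, so p-values measure only the spread between these libraries. The labels name no batch. Floors of 3 counts cover counting error only, since the labels mention no molecular identifiers.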

Additional observations from a re-analysis of the deposited data

Results flagged for a closer look

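Some libraries stood apart from the rest of their group in 1 gene, by the gap to the next library relative to the whole range of the group. In 28 combinations of gene and group tested, 7 values were found. The cut-offs give about 1 in 20 by chance only for independent, normally distributed values. They were applied here to CPM without logarithms, and the combinations share libraries, so the rate expected by chance is not known. Mcpt4 was at 38.8 CPM in Young CTRL 4 (next highest 6.02 CPM), at 171 CPM in Aged CTRL 2 (next 13.7 CPM) and at 394 CPM in Aged BAM15 2 (next 116 CPM). Tpsb2 was at 43.1 CPM in Young CTRL 4 (next 18.7 CPM). Ms4a2 was at 4.21 CPM in Aged CTRL 2 (next 1.30 CPM) and at 4.20 CPM in Aged BAM15 2 (next 1.499 CPM). These 6 values belong to 3 of the 4 libraries in which mt-Rnr2 is under 0.5% of counts. Hdc was at 4.95 CPM in Young BAM15 4 (next 2.30 CPM), a library with an ordinary mt-Rnr2 share of 0.985%.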

How the results depend on the processing

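The 7 genes gave 35 log2 changes and 844 values under the alternatives, of which 768 kept their direction, 76 reversed, and 1 passed the threshold (Mcpt4, Aged BAM15 minus Young BAM15, DESeq2 adjusted p = 0.0188, which makes 1 gene of the 7 called there, beside 2.32% of all genes). Cases that reversed without the 4 libraries low in mt-Rnr2 and under limma-voom with quality weights follow; the cause was not tested. For Aged CTRL minus Young CTRL, Kit was at -0.030 and -0.057. For Aged BAM15 minus Young BAM15, Cpa3 was at -0.044 and -0.36, Hdc at -0.15 without the 4, and Kit at 0.034 under limma-voom. For Aged BAM15 minus Aged CTRL, Cpa3 was at -0.24 and -0.53, Cma1 at -0.46 and -0.35, and Hdc at -0.47 and -0.15. For Young BAM15 minus Young CTRL, Mcpt4 was at 0.97 and 1.26, Tpsb2 at 0.35 and 0.35, Kit at -0.022 and -0.38, and Cma1 at 0.083 under limma-voom. For the difference between both BAM15 effects, Mcpt4 was at -0.12 and -0.11, Tpsb2 at -0.17 and -0.12, Cpa3 at -0.61 and -1.29, Cma1 at -0.22 and -0.43, Ms4a2 at -0.043 and -0.56, Hdc at -0.34 without the 4 and Kit at 0.091 under limma-voom. With the replicate block, Cma1 was at -0.0041 and Hdc at -0.062 in Aged BAM15 minus Aged CTRL, Hdc was at 0.078 in Young BAM15 minus Young CTRL and at -0.14 in the difference; 0 of the 7 genes passed, and the block gave 5 and 13 genes called in the age comparisons in CTRL and BAM15 mice. The numbers were not taken to pair libraries: deviations of same-numbered libraries had a median correlation of -0.04 over 33 pairs, against 0.00 over 182 others, and 3 of 23 libraries correlated best with their own number. Without Young CTRL 1 and 7 Hdc was at 0.070 in Young BAM15 minus Young CTRL.

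Leaving out 1 library at a time, the log2 change ranged from -0.37 to 3.07 for Mcpt4 and from -0.026 to 0.40 for Kit in Aged CTRL minus Young CTRL. In Aged BAM15 minus Aged CTRL it ranged from -0.013 to 0.72 for Cpa3, -0.39 to 0.23 for Cma1, -0.28 to 1.35 for Ms4a2 and -0.24 to 0.42 for Hdc, each lowest without Aged BAM15 2. In Young BAM15 minus Young CTRL it ranged from -0.50 to 0.99 for Mcpt4, -0.38 to 0.37 for Tpsb2, -0.23 to 0.41 for Kit and -0.39 to 0.22 for Hdc. In the difference between both BAM15 effects it ranged from -0.26 to 0.50 for Cpa3, -0.072 to 0.57 for Cma1, -0.61 to 0.99 for Ms4a2 and -0.17 to 0.56 for Hdc.

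Counts over all genes moved more. Aged CTRL minus Young CTRL gave 179 genes with DESeq2, 145 with limma-voom, 18 with the compared groups alone, 5 with the replicate block, 4 without Young CTRL 1 and 7, 79 without the 4 libraries and 20 to 35 leaving out 1 library. Aged BAM15 minus Young BAM15 gave 370, 302, 17, 13, 27 (without the 4) and 14 to 121. Aged BAM15 minus Aged CTRL gave 103 with DESeq2, 966 with limma-voom and 0 to 67 leaving out 1 library (67 without Aged BAM15 1, 17 without Aged CTRL 2). Young BAM15 minus Young CTRL gave 162, 631 and 0 to 1, and the difference gave 2 with DESeq2. Pairs whose levels correlate numbered 6 without the 4 libraries. Depth limits Ms4a2 most, with at most 19 counts in the 20 libraries outside the 4.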
